A study of Saccharomyces cerevisiae with 4 samples.

Results

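Wall glucanases of budding yeast were examined: enzymes, and close relatives of enzymes, that cut β-1,3-glucan, the polymer that carries the load of the yeast cell wall. The genes were taken by name: EXG1, EXG2, BGL2, DSE2, SPR1, SCW4, SCW10, SCW11, DSE4 and ACF2, wherever the annotation of the chip listed them. Of these 10 genes, 6 were found among the 353 named genes of the chip, and all 6 had a value on each of the 4 arrays. They were EXG2 (YDR261C), BGL2 (YGR282C), EXG1 (YLR300W), SCW10 (YMR305C), DSE2 (YHR143W) and SPR1 (YOR190W). SCW4, SCW11, DSE4 and ACF2 were not analysed here.

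Every array carried RNA of Saccharomyces cerevisiae BY4741 without HOG1, the gene of the osmotic stress MAP kinase, in both channels. The treated RNA came from the part of a culture given Congo Red, a dye that binds wall polymers, at 30 µg/ml, and the untreated RNA from the part without it, both grown in YEPD at 24 °C and collected at 4 h. Arrays 1 and 3 held the treated RNA in channel 2, and arrays 2 and 4 held it in channel 1. A strain with HOG1 was not analysed here, and the sources used here do not say whether the arrays stem from separate cultures, so the p-values cover no more than the scatter of these arrays, possibly a technical one.

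A yeast cell must loosen its glucan to grow and to divide. Exoglucanases take glucose from the ends of glucan chains. Endoglucanases cut inside a chain, and some of them join the cut end to another chain, which remodels the network without breaking it down. At the end of division a further set, made in the daughter, dissolves the wall between daughter and mother. The measured genes divide along this line. EXG1, EXG2, BGL2 and SCW10 are wall remodelling genes, DSE2 is the one measured separation gene, and SPR1 encodes an exoglucanase of sporulating cells.

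Each value is a log2 ratio within an array, with Congo Red taken as the numerator. The sources used here do not name the numerator, so this direction is assumed and called likely only because known wall stress genes are then higher; with the opposite numerator, every sign below turns. Values of arrays with opposite channel order were kept as deposited. The sources used here do not say whether they had been turned to one direction. As deposited, over the tested genes, which share arrays and are no replicates, Pearson's r was 0.27 to 0.44 for arrays of opposite order and 0.70 and 0.75 for arrays of the same order. With arrays 2 and 4 turned, 0 of the 348 tested genes were called (limma, 33 with an unadjusted p under 0.05), so the 0 of 6 glucanase genes called there are no result about them. HOG1 itself had ratios from -1.73 to 1.43, which say nothing of the deletion, as the place of its probe is not known here. ACT1, the actin gene, had a mean of 0.056 ± 0.13 (SD, n = 4). MET17, also looked at as a check, had 3.05, -0.51, 2.92 and 0.16 on arrays 1 to 4. It was thus far higher on arrays 1 and 3 than on arrays 2 and 4, and the cause was not tested.

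Of the 4 remodelling genes 3 were called higher after Congo Red, and SCW10 and the separation gene DSE2 were not called. EXG2 was 1.96-fold higher, BGL2 1.74-fold and EXG1 1.53-fold, each past the test, while SCW10 missed the threshold with all arrays above 0. DSE2 lay near 0, and SPR1 scattered on both sides of it. Of the 6 genes, 3 were called higher and 0 lower at an adjusted p under 0.05 (limma, adjusted over all 348 tested genes), and 4 had an unadjusted p under 0.05. Over the whole chip 17.0% of the tested genes were called higher and 3.74% lower, and 113 of 348 had an unadjusted p under 0.05. The median of the 6 mean log2 ratios was 0.54, against 0.016 over all tested genes. The genes were proposed with results of these arrays known, so this count is a description of them.

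**Figure D1:**
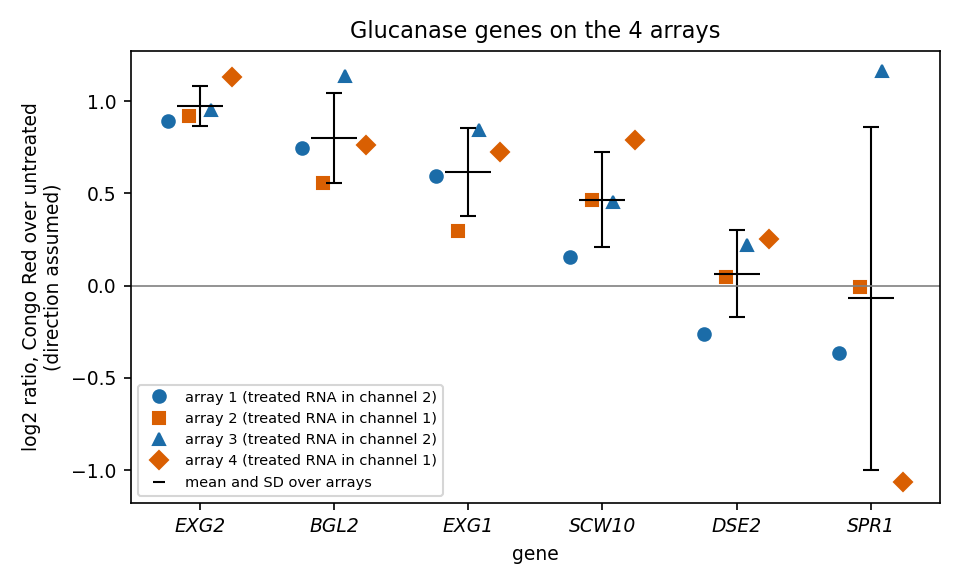
Log2 ratio (Congo Red over untreated, direction assumed) of the 6 glucanase genes on each of the 4 arrays; blue marks arrays with treated RNA in channel 2, orange those with it in channel 1, and black lines give the mean and SD over arrays. EXG2, BGL2, EXG1 and SCW10 lie above 0 on every array, DSE2 runs from -0.26 to 0.25, and SPR1 spreads from -1.06 to 1.16.

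EXG2 encodes an exo-β-1,3-glucanase tied to the cell surface by a GPI anchor. Its log2 ratios were 0.89 on array 1, 0.92 on array 2, 0.95 on array 3 and 1.13 on array 4. The 4 arrays lie close together and far from 0, with no gap between the channel orders. The mean was 0.97 ± 0.11 (SD, n = 4), a 1.96-fold difference with a 95% interval of 1.62 to 2.37 (limma adjusted p = 0.00504). EXG2 stood above 89.1% of the tested genes by mean, and only 4.60% of them had a smaller SD. It was the member with the largest mean and the smallest spread, and it alone kept its call whichever single array was left out (adjusted p 0.0161 to 0.0281).

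EXG1 encodes the main secreted exo-β-1,3-glucanase, a relative of Exg2 without the anchor. Its log2 ratios were 0.60, 0.29, 0.84 and 0.73 on arrays 1 to 4. Array 2 was the lowest, and all 4 were above 0. The mean was 0.61 ± 0.24 (SD, n = 4), or 1.53-fold with a 95% interval of 1.21 to 1.94 (limma adjusted p = 0.0313). EXG1 was below EXG2 on each array, by 0.36 ± 0.22 (SD, n = 4) on the log2 scale. An exact two-sided sign-flip test over 4 arrays cannot go under p = 0.125, which this difference reached (adjusted p = 0.268 over the 15 pairs of members). The call of EXG1 was lost without array 1, 3 or 4 (adjusted p = 0.0865, 0.114 and 0.112).

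BGL2 encodes a major wall protein, an endo-β-1,3-glucanase that also transfers the cut chain to another. Its log2 ratios were 0.74, 0.56, 1.14 and 0.76 on arrays 1 to 4. Array 3 was the highest and array 2 again the lowest, as in EXG1. The mean was 0.80 ± 0.24 (SD, n = 4), or 1.74-fold with a 95% interval of 1.37 to 2.21 (limma adjusted p = 0.0152). Without array 1, 3 or 4 the adjusted p of BGL2 was 0.0572, 0.0522 and 0.0533, just over the threshold, so only EXG2 of the 6 genes remained called in each of these 3 fits.

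SCW10 encodes a wall protein of the same family as Bgl2, with the sequence of a glucanase. Its log2 ratios were 0.16, 0.47, 0.45 and 0.79 on arrays 1 to 4. All were above 0, with array 1 the lowest and array 4 the highest. The mean of 0.47 ± 0.26 (SD, n = 4), or 1.38-fold with a 95% interval of 1.08 to 1.77, was not called (limma adjusted p = 0.0839, unadjusted p = 0.0200). The interval and the unadjusted p take no account of the number of genes tested. With a coefficient for channel order in the model SCW10 passed (adjusted p = 0.0314), where 4 of the 6 genes were called higher and 25.0% of the chip's tested genes were.

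DSE2 encodes a secreted protein with glucanase features that is made in the daughter and helps it to separate. Its log2 ratios were -0.26, 0.047, 0.22 and 0.25 on arrays 1 to 4. The arrays fell on both sides of 0, with array 1 the only negative one. The mean was 0.064 ± 0.24 (SD, n = 4; limma adjusted p = 0.831). The 95% interval of the fold ran from 0.825 to 1.32. The spread of DSE2 was like that of EXG1 and BGL2, whose SDs were 0.24 each, so the missing call did not come with a wider scatter.

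SPR1 encodes an exo-β-1,3-glucanase related to Exg1 that is made in sporulation. Its log2 ratios were -0.36, -0.0079, 1.16 and -1.06 on arrays 1 to 4. They had no common sign, and the SD of 0.93 exceeded that of 89.1% of the tested genes. The mean of -0.069 (n = 4, limma adjusted p = 0.941) left a fold interval of 0.497 to 1.83, wide enough to hold the folds of EXG1 and BGL2. Its spots are described further on.

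The order of the mean ratios was EXG2, BGL2, EXG1, SCW10, DSE2 and SPR1. Neighbours in that order mostly overlapped. EXG2 exceeded BGL2 by 0.17 ± 0.26 (SD, n = 4) and on 3 of 4 arrays. BGL2 exceeded EXG1 by 0.18 ± 0.12 on 4 of 4 arrays, and EXG1 exceeded SCW10 by 0.15 ± 0.31 on 2 of 4. SCW10 exceeded DSE2 by 0.40 ± 0.13, on 4 of 4 arrays, and DSE2 exceeded SPR1 by 0.13 ± 0.92 on 3 of 4. Among the 15 pairs of members, 7 kept one order on all arrays, and none could pass the exact sign-flip test, whose smallest p of 0.125 became 0.268 after adjustment.

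Remodelling genes were then set against the separation gene. The mean log2 ratio of EXG1, EXG2, BGL2 and SCW10 was 0.60, 0.56, 0.85 and 0.85 on arrays 1 to 4, and that of DSE2 was lower on each. The difference between them was 0.86, 0.51, 0.62 and 0.60, with a mean of 0.65 ± 0.15 (SD, n = 4). Taken gene by gene, all 16 differences of a remodelling gene from DSE2 on the same array were above 0, from 0.23 for SCW10 on array 3 to 1.16 for EXG2 on array 1. Those of an array share the same DSE2 value, so they are not 16 separate observations. Many other genes exceeded DSE2 too, which was above 25.4%, 59.1%, 49.3% and 62.3% of the genes valued on arrays 1 to 4. Being taken within an array, the mean difference does not move with the centring of the arrays. It shows unequal ratios of these genes and rests on a single separation gene, so it is given with no test. With arrays 2 and 4 turned it was 0.092.

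**Figure D2:**
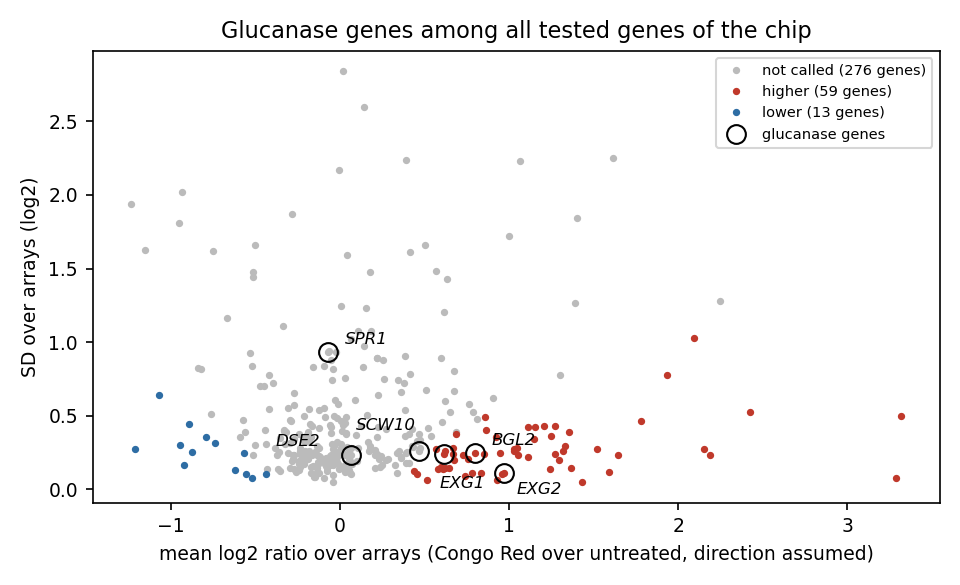
Mean log2 ratio over the arrays (horizontal, direction assumed) against the SD over the arrays (vertical) for the 348 tested genes, with the 6 glucanase genes ringed; red and blue mark genes called higher (59) and lower (13) by limma at an adjusted p under 0.05. EXG2 has the smallest SD of the 6 (0.11), SCW10 sits at the edge of the called genes, and SPR1 has an SD of 0.93.

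The array medians differed, so the rank of each gene within an array was set beside its ratio. Median log2 ratios of the tested genes were 0.014, -0.11, 0.22 and 0.083 on arrays 1 to 4. EXG2 was above 84.8%, 88.0%, 82.9% and 86.5% of the genes valued on arrays 1 to 4. BGL2 was above 79.6%, 80.1%, 87.2% and 80.1%, and EXG1 above 74.3%, 72.8%, 80.3% and 79.2%. After centring of each array on its median EXG1 and BGL2 had lower adjusted p (limma, 0.00961 and 0.00511). DSE2 was above 25.4%, 59.1%, 49.3% and 62.3%, around the middle of the chip except on array 1. SCW10 was higher by rank on arrays 2 and 4 (77.8% and 80.7%) than on arrays 1 and 3 (59.8% and 63.8%).

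Channel order was looked at in the same fit. The means of arrays 1 and 3 and of arrays 2 and 4 were 0.92 and 1.02 for EXG2, 0.94 and 0.66 for BGL2, and 0.72 and 0.51 for EXG1. They were 0.30 and 0.63 for SCW10, the reverse order. For the channel order coefficient 0 of the 6 genes passed (limma, 0 also at an unadjusted p under 0.05), against 6.61% of the tested genes on the chip. At so low a share, 0 of 6 does not set these genes apart from the chip. The unadjusted count was not taken over the chip. EXG2, BGL2, EXG1 and SCW10 were above 0 on all 4 arrays, as were 27.3% of the tested genes on every array that measured them.

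Each gene was spotted in duplicate, which gives the error within an array. For EXG2, BGL2, EXG1, SCW10 and DSE2 the duplicates lay at most 0.14 apart on any array, with a median of 0.043. SCW10 repeated most closely, with 0.16 and 0.16 on array 1 and 0.46 and 0.44 on array 3. The spread between arrays of BGL2, EXG1, SCW10 and DSE2 was therefore larger than the error between their spots. Over tested genes the median SD was 0.064 between spots and 0.28 between arrays.

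SPR1 was the exception. On array 3 its spots had log2 ratios of 2.32 and 0, a gap of 2.32, and on array 4 they had -1.22 and -0.91. On array 1 only 1 of its 2 spots had a value. The ratio of 1.16 on array 3 is thus the mean of a high spot and a spot at 0. Of its 5 spot values on arrays 1 to 3, 3 equalled the logarithm of a ratio of small whole numbers within 0.00011: 7 to 9, 5 to 1 and 1 to 1. EXG1, EXG2, BGL2, SCW10 and DSE2 each had 6 spot values on these arrays, and 0 of them did so, while 4.21% of the values of the other tested genes did. Intensities were not analysed here, and whether the SPR1 spots lay near the background was not tested.

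**Figure D3:**
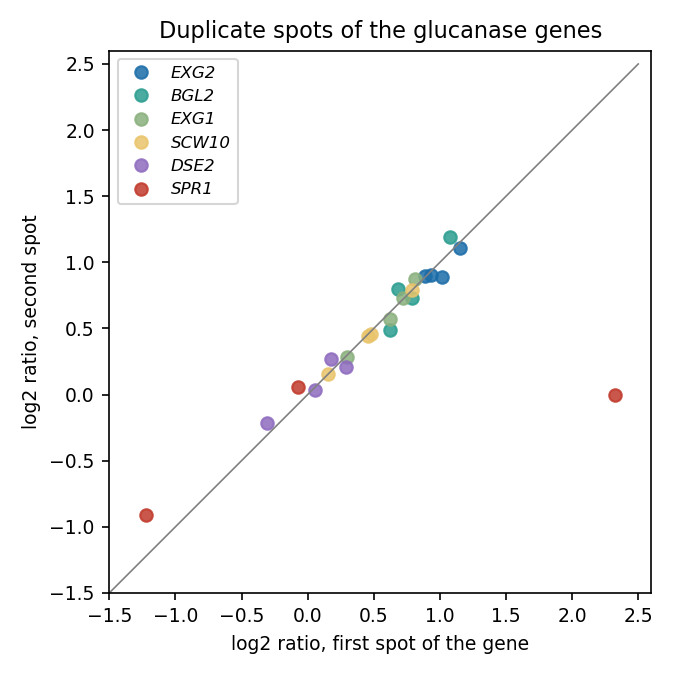
Log2 ratio of the second spot (vertical) against the first spot (horizontal) of each glucanase gene, a point for each array on which both spots had a value; the grey line marks equal values. All points lie within 0.14 of equality except SPR1, whose spots on array 3 read 2.32 and 0 and on array 4 -1.22 and -0.91.

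Genes of glucan synthesis and of its regulation were set beside the glucanases. Of 7 tested genes of that list, 2 were higher and 0 lower (3 with an unadjusted p under 0.05), with a median of 0.18, on a chip with 17.0% called higher. The called genes were GSC2 and FKS1, which encode catalytic subunits of glucan synthase. The list also held RHO1, ROM2, BEM2, SAC7 and BAG7, none of them called. Its median was the mean of SAC7, which ran from -1.28 to 0.99 over the arrays, so it is no level of the synthase genes. FKS1 ran from 0.74 to 1.40 over the arrays, with a mean of 1.03 ± 0.28 (SD, n = 4), close to the 0.97 of EXG2. GSC2 was above each glucanase, at 1.78 ± 0.46. RHO1, the GTPase that activates the synthase, had 0.36 ± 0.22 and was not called (limma adjusted p = 0.121).

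Among genes for glucan elongation and linking, 2 of 7 were higher and 0 lower (3 with an unadjusted p under 0.05), with a median of 0.47. On the chip 17.0% of the tested genes were called higher, and 113 of 348 had an unadjusted p under 0.05. The higher genes of this list were CRH1, which links chitin to glucan (1.32 ± 0.26, SD, n = 4), and GAS2 (0.67 ± 0.28). GAS2 encodes a glucan elongase best known from spore wall formation. With a channel order term GAS4 and GAS5 passed as well (limma adjusted p = 0.0246 and 0.0255), where 25.0% of the chip was called higher. GAS4 had 1.72, -0.93, 2.14 and -0.93 on arrays 1 to 4, so its sign changed with channel order. Without that term GAS4 was not called (limma adjusted p = 0.665). GAS1, the main elongase of growing cells, had ratios of 0.74, -1.08, 0.62 and -0.49, positive on arrays 1 and 3 and negative on arrays 2 and 4, and was not called. The remodelling glucanases were above 0 in both channel orders. A list of SUN and other wall proteins had 3 tested genes, SUN4, DFG5 and DCW1, of which SUN4 alone is of the SUN family. Of these 3 genes, 1 was higher and 0 lower, against 17.0% and 3.74% of the chip. It was DFG5, which encodes a putative enzyme of GPI protein attachment (1.27 ± 0.24). SUN4, a wall protein with a part in septation, had -0.21 ± 0.18 and was not called. Nor was DCW1, with 0.26 ± 0.75 (SD, n = 3).

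Few other genes of daughter separation were measured. Of 4 tested, 0 were higher and 0 lower (limma, 1 with an unadjusted p under 0.05), and their median was 0.038. With 17.0% of the chip called higher and 113 of its 348 genes under the unadjusted 0.05, so few genes do not set the list apart from the chip. For EGT2, a gene needed for separation, the log2 ratios of arrays 1 to 4 were -0.45, 0.11, -0.28 and 0.09. KIC1, a protein kinase gene, had 0.21 ± 0.14 (SD, n = 4), and PRY3 scattered from -1.89 to 1.42. The gene with the low unadjusted p was PIR1 (0.40 ± 0.25; limma adjusted p = 0.119, and 0.0402 with a channel order term, as SCW10 also passed there), a wall protein gene that also answers to wall stress. With 4 genes on the chip of the 18 in the list, the separation programme was sampled thinly.

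**Figure D4:**
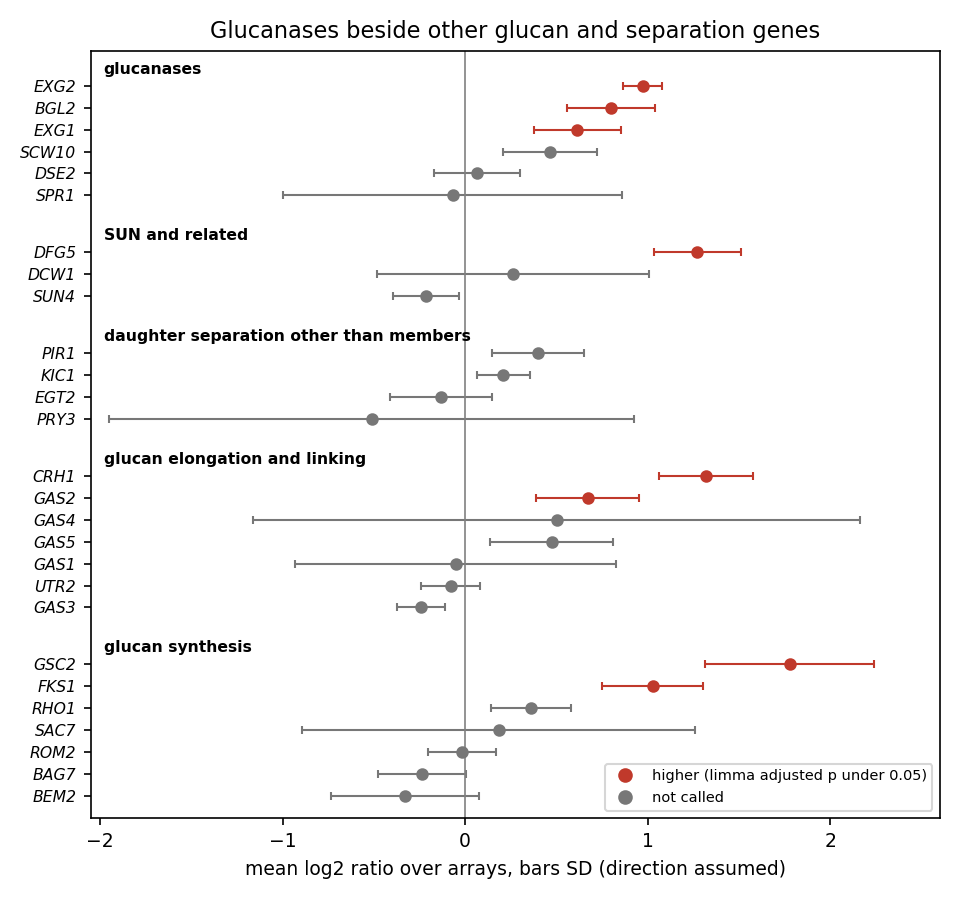
Mean log2 ratio over the arrays (direction assumed) of the 6 glucanase genes and of the tested genes of 4 lists, with bars for the SD; red marks genes called higher by limma at an adjusted p under 0.05. GSC2, CRH1, DFG5 and FKS1 lie above EXG2, and the separation genes lie between -0.51 and 0.40 with none called.

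The 3 genes with the profile most like each glucanase were sought by the root mean square difference of the log2 ratios over 4 arrays among 322 other genes. EXG2 was nearest to SVS1 (difference 0.094), YKE4 and SPI1, a GPI-anchored wall protein gene (0.15). BGL2 was nearest to CHS7, which serves the export of a chitin synthase (0.064), then to PUN1 (0.10) and ANS1. EXG1 was nearest to AFB1 (0.084), YMR315W and GAS2 (0.10). All 9 of these genes were called higher, but they were picked for ratios close to those of called genes. The calls of such neighbours, here and below, largely follow from that choice and are no separate result. SCW10 was nearest to PIR1 (0.093), YET1 and the mannoprotein gene CWP2 (0.12), and DSE2 to KRE1, a gene of β-1,6-glucan assembly (0.050), DIT2 and PHO89, none of them called. SPR1 had no close match, since ATG32, MCM2 and MET5 lay 0.46 to 0.57 away.

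In gene order, CHS7 stands next to DSE2. The ratios of CHS7 were 0.77, 0.66, 1.20 and 0.77 over arrays 1 to 4 (mean 0.85 ± 0.24, SD, n = 4; limma adjusted p = 0.0129). It was above DSE2 on all 4 arrays. Next to EXG1 stands ECM38, a gene of glutathione breakdown, with -0.093 ± 0.55 and no call. Next to EXG2 stands the reading frame YDR261W-B, with -0.12 ± 0.11 and no call. The other neighbours were not analysed here. These 3 were named after their values were seen.

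Members of these enzyme families resemble each other in sequence. How far the probes tell EXG1 from EXG2 and SPR1, or BGL2 from SCW10 and SCW4, is not known here. EXG2 exceeded EXG1 on 4 of 4 arrays, and EXG1 exceeded SPR1 on 3 of 4 (exact sign-flip p = 0.125 and 0.375). Neither difference passed that test, so these ratios do not show that the probes tell the genes apart. The part of shared hybridisation in any of these values was not tested.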

How the data were processed

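The authors deposited log2 ratios, 1 per spot and array, with 53 to 73 spots per array empty. No label or header used here names the scanner, background correction or normalization. The base of 2 follows from how often values matched whole-number ratios: 58, 57 and 36 values of arrays 1, 2 and 3 matched, within 0.00011, a base-2 logarithm of unequal whole numbers of 10 or less, and no more than 9 matched a natural or base-10 one. Array 4 has 2 decimals and was not read this way. Of 896 spots, 724 have 1 gene in the platform annotation, 10 several and 162 no name here. All 353 genes matched the R64 table, used for names and gene order. Spots of a gene were averaged on each array.

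Log2 ratios were tested against 0 with limma 3.58.1 in R 4.3.3 (lmFit, eBayes) over the 348 genes with at least 3 values. Benjamini-Hochberg adjustment was used, with a threshold of 0.05. Beforehand the method was tried on simulated data with independent normal scatter on each array and no effect of channel order. That trial does not cover the likeness of arrays of the same order. Values were kept as deposited. The members and gene lists were chosen with earlier results of these arrays known. Named are all members, list genes past the threshold, the 3 nearest profiles of each member, HOG1 and ACT1. List genes not called, gene neighbours and MET17 were named after their values were seen. Alternatives were centring, scaling, the other turning, a channel order term, robust variance, array weights, genes with 4 values, single spots and each array left out. Averaging arrays 1 with 2 and 3 with 4, and keeping genes with 2 values when an array was left out, were chosen after seeing the data. The promoter search was not run, since no sequences were used here. The plots were made in Python 3.11.15 with matplotlib 3.10.9. The number of arrays limits the precision.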

Additional observations from a re-analysis of the deposited data

Results flagged for a closer look

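Of 31 results measured on 4 arrays, 1 had an array far apart from its other 3. MCM2, a gene of the replicative helicase and one of the nearest profiles of SPR1, had a log2 ratio of -1.16 on array 4, against 0.27 to 0.35 on the others. Chance marks about 1 in 20 such groups. None of the 6 glucanase genes stood out in this way.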

How the results depend on the processing

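With arrays 2 and 4 turned, 0 of the 6 genes were called higher, the remodelling genes exceeded DSE2 by 0.092, and log2 ratios changed sign for EXG2 (-0.051), SCW10 (-0.16), DSE2 (-0.084) and SPR1 (0.47). Leaving out 1 array gave 1 to 3 genes called higher, with 1 without array 1, 3 or 4, also where genes with 2 remaining values were kept. SPR1 then ranged from -0.48 to 0.26, with 0.029 without array 1. SPR1 was 0.34 on its first spot, -0.30 on its last and 0.019 with spots tested singly. The causes were not tested. With arrays 1 and 2 and arrays 3 and 4 averaged, 2 genes were called higher, and EXG1 was lost (limma adjusted p = 0.118). A channel order term gave 4. The count stayed at 3 with centring, scaling, robust variance, array weights, genes with 4 values and single spots, and 0 genes were called lower in any alternative. Where spots were tested singly, a gene counted as called if either of its spots passed, a looser rule. Of 19 alternatives, EXG2 was called in 18, BGL2 in 12, EXG1 in 11, SCW10 in 1 and DSE2 and SPR1 in 0. Each fit without an array is among them in both versions, with the same ratios of the 6 genes, so they are not 19 separate checks. On the whole chip, 59 genes were higher and 13 lower, against 87 and 34 with a channel order term, 60 and 23 after centring, 64 and 24 after scaling, 53 and 16 with the arrays averaged in pairs, 0 and 0 with arrays 2 and 4 turned (33 at an unadjusted p under 0.05), 110 and 20 of 832 spots tested singly, and 33 to 46 and 3 to 6 with an array left out (25 to 49 and 2 to 6 with genes of 2 values kept). Without intensities, dim spots could not be set apart.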
